A study of Homo sapiens with 48 samples.

Results

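The expression of 52 Wnt pathway genes was followed in PSN1 cells, a human pancreatic cancer line, before and after acquired resistance to Talazoparib, an inhibitor of the DNA repair enzyme PARP1. The 52 genes were taken by symbol from a table of 20241 protein-coding genes, and all 52 were found in it. They comprise 14 WNT ligands, 1 enzyme that processes the ligands, 13 receptors, 2 receptors for R-spondin, 6 secreted antagonists, 7 intracellular core components, 4 transcription factors and 5 feedback inhibitors. RNAseq was available for 3 groups of 3 replicates each. Parental cells carry the genotype label WT, were untreated and are dated Day 0. TalaR-M cells were selected in Talazoparib and kept in it, with 50 nM and 4 months on their labels. TalaR-DF cells are the resistant cells after culture without drug, for 4 weeks in the study's text, and are labelled untreated and Day 0. All groups derive from PSN1 and were grown in RPMI1640 with 10% fetal bovine serum. How many independent selections the resistant cells come from, and whether they are clones or pools, is not given in the sources used here. Nothing says that the triplicates came from separate cultures, so the p-values measure only the spread between these samples, which may be technical. In bulk RNA, fewer cells that express a gene and less RNA per cell cannot be told apart.

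WNT ligands are secreted lipid-modified proteins that bind Frizzled receptors together with the co-receptors LRP5 and LRP6. In the canonical branch, the signal passes through Dishevelled proteins and stops the destruction complex of AXIN1, APC and GSK3B from marking β-catenin, the product of CTNNB1, for degradation. β-catenin then works with TCF/LEF transcription factors on target genes, several of which, such as AXIN2, RNF43, ZNRF3, NKD1 and DKK1, dampen the signal in turn. Other branches, often set off by WNT5A through ROR receptors, act on cell polarity and calcium without β-catenin. In pancreatic cancer, loss of RNF43 is known to make tumours depend on WNT ligands.

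Each value is a log2 CPM, the log2 of a gene's share of the reads of its library on the usual CPM scale. Values under 0 were set to 0 in the deposited table, so that a gene listed at 0 had at most 1 CPM. The libraries held between 8387755 and 14973847 reads on genes above 1 CPM, and 1 CPM corresponded to between 6.97 and 14.54 reads. TalaR-M replicate 2 was the shallowest library and stood apart from its group, with a correlation of 0.780 to its group mates against 0.993 to 0.997 for all other pairs within a group. Each result on TalaR-M cells is therefore also given without it where that changes the call. Of the epithelial markers that go with the label of pancreatic cancer cells, keratins and EPCAM were detected in every library, but CDH1, which encodes E-cadherin, was at 0 in all 9. The summed level of 6 epithelial markers was 1077.8 to 1132.2 CPM in parental, 1700.8 to 5773.3 in TalaR-M and 948.7 to 1085.2 in TalaR-DF libraries, with 5 of 6 detected. All 4 mesenchymal markers were detected, and their sum was 6005.8 to 6274.2, 1771.4 to 4837.4 and 2237.3 to 2679.3 CPM. Of 4 leukocyte markers, CD3E, CD68 and LYZ were at 0 in all 9 libraries, and PTPRC, at 0 in parental cells, reached 1.79 log2 CPM in 1 TalaR-M library. Of 4 endothelial markers, VWF was at 0 throughout and 3 were detected, with a sum of 28.8 to 30.9, 5.9 to 9.1 and 2.9 to 3.2 CPM that was mostly PECAM1 (3.76 to 3.84 log2 CPM in parental cells) and KDR (3.82 to 3.99). The summed level of 6 fibroblast markers was 196.3 to 207.9 CPM in parental, 34.6 to 105.2 in TalaR-M and 338.6 to 383.2 in TalaR-DF libraries, with 5 of 6 detected and THY1 at 0 throughout. In TalaR-DF cells POSTN was higher than in parental cells (8.03 to 8.27 against 4.33 to 4.51 log2 CPM), while PDGFRB (2.40 to 3.20 against 6.06 to 6.19), LUM (3.36 to 3.59 against 5.25 to 5.34) and PDGFRA (5.82 to 5.92 against 6.11 to 6.17) were lower. TalaR-M replicate 2 set the highest epithelial sum and the lowest mesenchymal and fibroblast sums of its group. In that library KRT8 was at 11.44 log2 CPM against 9.92 and 9.83 in its group mates, and FN1 at 9.52 against 11.99 and 12.11. The part of these shifts in the results was not tested.

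Of the 52 genes, 12 were listed at 0 in all 9 libraries. These were the ligands WNT3A, WNT7A, WNT10A and WNT16, the R-spondin receptor LGR6, the antagonists SFRP1, SFRP2, SFRP4 and WIF1, the transcription factor LEF1 and the feedback inhibitors ZNRF3 and NKD1. A further 3 were above 1 CPM in only 1 or 2 libraries, which left 37 genes for the test. WNT5B and WNT6 were seen in TalaR-M replicate 2 alone, at 12 and 14 reads. AXIN2, the feedback inhibitor commonly used as a reporter of β-catenin activity, reached 0.50 log2 CPM in replicate 1 and 1.23 in replicate 3 of the TalaR-M cells, at 21 and 32 reads, and at 0 in the other 7 libraries. Among the 37 tested genes, 29 were above 1 CPM in all 9 libraries, and WNT11 entered the test through the parental group only. WNT5A, FZD8, WNT2B and WNT9A were also seen in another group, but reached the 3 libraries needed only with the group where they were highest. Their calls, which are in the counts below, are therefore given as a description. The heat map shows the 40 detected genes by role.

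**Figure D1:**
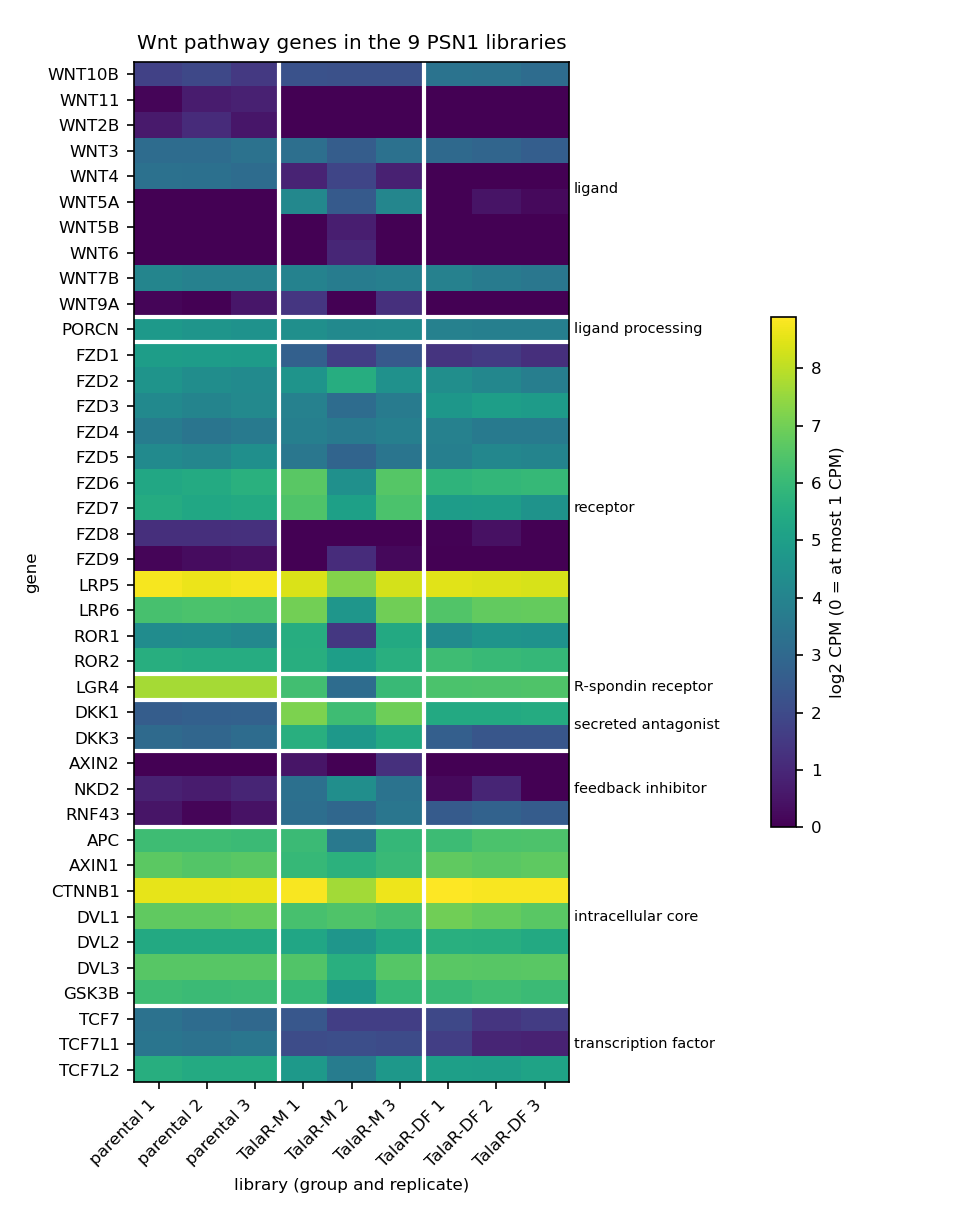
Level of the 40 Wnt pathway genes above 1 CPM in at least 1 library (rows, grouped by role) in the 9 PSN1 libraries (columns, grouped by state), as log2 CPM on a colour scale from 0, which stands for at most 1 CPM. DKK1, WNT5A and NKD2 are brighter in TalaR-M than in parental cells, FZD1 is darker in both resistant groups, and TalaR-M replicate 2 is darker than its group mates for ROR1, LGR4, APC and LRP6.

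A gene was called different at a Benjamini-Hochberg adjusted p under 0.05 over all 12471 genes tested and a change of at least 2-fold. Between TalaR-M and parental cells, 12 of the 37 tested Wnt genes were called, 5 higher and 7 lower, which is 32.4% against 13.3% of all genes tested (5.53% higher and 7.72% lower). Between TalaR-DF and parental cells, 8 were called, 3 higher and 5 lower, which is 21.6% against 9.73% of all genes (2.25% and 7.49%). Between TalaR-M and TalaR-DF cells, 7 were called, 5 higher and 2 lower in TalaR-M cells, which is 18.9% against 6.93% (5.29% and 1.64%). Whether the Wnt genes as a list differ from the other genes was not tested. Without TalaR-M replicate 2 15 Wnt genes were called in the first comparison, 9 higher and 6 lower, against 13.9% of all genes (6.78% and 7.07%). In the second, 9 were called, 3 higher and 6 lower, against 11.4% (2.73% and 8.63%), and in the last 9, 7 higher and 2 lower, against 8.36% (6.96% and 1.4%). The medians of the log2 fold changes over the 37 genes were -0.32, -0.23 and 0.00 in the 3 comparisons, beside -0.09, 0.01 and -0.09 over all genes. Across the 3 comparisons, 14 genes were called in at least 1 comparison, 7 in both comparisons with parental cells and 2, WNT4 and DKK1, in all 3. The 2 comparisons with parental cells share the same control libraries. The values of the 2 groups did not overlap for 24, 23 and 23 of the 37 genes in the 3 comparisons, against 49.8%, 68.5% and 40.8% of all genes, so that separate ranges alone are common in these libraries. Rescaling the libraries by their median ratio moved the median of all genes between TalaR-M and parental cells from -0.09 to 0.01.

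**Figure D2:**
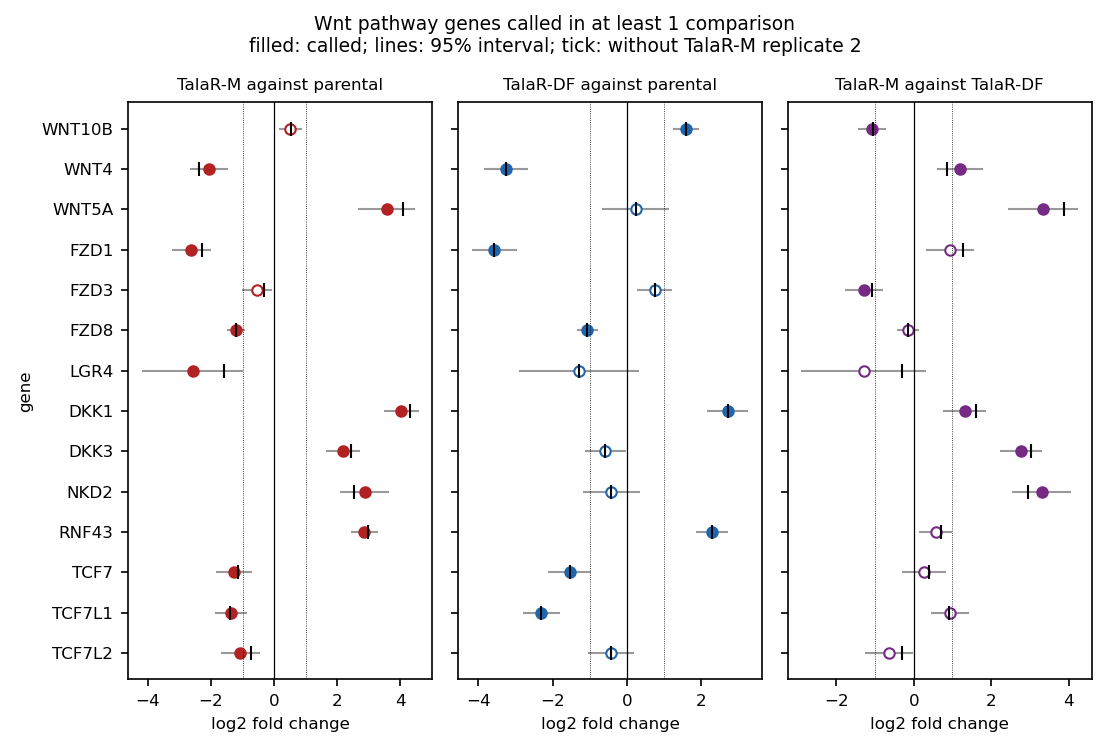
Log2 fold changes (x axis) of the 14 Wnt pathway genes called in at least 1 comparison (y axis, ordered by role), with their 95% intervals as grey lines, in the 3 comparisons. Filled points passed both thresholds, open points did not, dotted lines mark a 2-fold change, and black ticks give the value without TalaR-M replicate 2; the longest interval is that of LGR4, whose tick lies well to the right of its point in the left panel.

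The ligands changed in opposite directions. WNT5A, the best known activator of the branches without β-catenin, was above 1 CPM in every TalaR-M library and in no parental one, and WNT4 was lower in TalaR-M cells and at most 1 CPM in TalaR-DF cells, while WNT10B, a ligand of the canonical branch, was highest in TalaR-DF cells. WNT5A (chr3:55465715-55490539, minus strand, 5 exons) was listed at 0 in all 3 parental libraries, was at 4.14, 2.53 and 4.07 log2 CPM in TalaR-M cells and at 0, 0.47 and 0.24 in TalaR-DF cells. Every TalaR-M library lay above all others, with 276, 43 and 235 reads against at most 18 in any other library. Its level exceeded the parental level at least 12-fold in TalaR-M cells (log2 fold change 3.58 ± 0.39 SE, adjusted p = 0.000347) and was 3.34 log2 units higher than in TalaR-DF cells (adjusted p = 0.00117). The parental values, all at 0, add no spread to the estimate shared by the groups. The SE and adjusted p may therefore be too small, the SD in TalaR-M cells being 0.91. TalaR-DF and parental cells differed by 0.24 log2 units (adjusted p = 0.787), close to the lower end of what the table can show. WNT5A would not have entered the test without the TalaR-M group, so its calls describe these libraries only.

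WNT4 (chr1:22117313-22143969, minus strand), a ligand best known from kidney and gonad development, was at 3.33, 3.30 and 3.15 log2 CPM in parental cells and at 0.89, 1.87 and 0.83 in TalaR-M cells. In all 3 TalaR-DF libraries it was listed at 0. The groups did not overlap in any comparison, with parental cells highest and TalaR-DF cells lowest. WNT4 fell by 2.06 log2 units (± 0.26 SE, adjusted p = 0.00078) in TalaR-M cells and was at least 9.58-fold lower in TalaR-DF cells (adjusted p = 6.81e-05). The gap between the resistant states, 1.20 log2 units with TalaR-M higher (adjusted p = 0.0217), was 0.86 without TalaR-M replicate 2 and then under 2-fold, and without any 1 TalaR-DF replicate its adjusted p was between 0.0792 and 0.082. An unnamed gene on the opposite strand overlaps an exon of WNT4, and whether counting used strand is not given in the sources used here.

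WNT10B (chr12:48965340-48971735, minus strand) was at 1.71, 1.93 and 1.49 log2 CPM in parental cells, 2.26, 2.20 and 2.21 in TalaR-M cells and 3.40, 3.35 and 3.14 in TalaR-DF cells. The 3 groups were in separate ranges. It rose by 1.59 log2 units in TalaR-DF cells (± 0.16 SE, adjusted p = 0.000221) and was 1.08 log2 units lower in TalaR-M than in TalaR-DF cells (adjusted p = 0.00347). After rescaling of the libraries by their median ratio, this last difference was -0.92, and with 1 CPM added to every value it was -0.94. The change of 0.51 in TalaR-M cells passed the adjusted p (0.0469) but not the 2-fold limit.

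The remaining ligands were called in no comparison with all libraries. WNT7B and WNT3 were the steadiest, with group means of 3.95, 3.84 and 3.72 log2 CPM for WNT7B and 3.21, 3.07 and 2.88 for WNT3 in parental, TalaR-M and TalaR-DF cells. WNT2B was at 0.65, 1.11 and 0.53 in parental cells and at no more than 0.0002 log2 CPM elsewhere, a fitted difference of -0.76 in both comparisons that passed the adjusted p but not the 2-fold limit. The size of this difference is limited by the floor at 1 CPM, and with 1 CPM added to every value, a gene at 0 being taken as 0 CPM, WNT2B was called lower in both comparisons (-1.10 and -1.44). WNT11 was detected in parental cells alone, at 0.13, 0.66 and 0.80, and was likewise called lower with 1 CPM added (-1.30 in both). That setting places any value above 0 at least 1 log2 unit over a value at 0. Passing the 2-fold limit under it follows largely from its construction for WNT2B and WNT11, and is no further evidence of a fall. WNT9A was at 1.42 and 1.23 in TalaR-M replicates 1 and 3 and at 0 in replicate 2, and was not called with all libraries weighted equally. It was called higher in TalaR-M cells without that replicate (1.11 against parental and 1.33 against TalaR-DF cells) and with array weights, a weight per library estimated by limma (1.07 and 1.30). Levels of different genes can be compared once divided by transcript length. On that scale, log2 CPM per kilobase, WNT7B (1.97), WNT3 (1.49) and WNT4 (1.27) were the highest ligands in parental cells, WNT7B (1.86), WNT3 (1.35), WNT10B (1.05) and WNT5A (1.03) in TalaR-M cells, and WNT10B (2.13) and WNT7B (1.74) in TalaR-DF cells. The spread of WNT5A in TalaR-M cells, 0.91 (SD, n = 3), covers the gaps to the other 3. PORCN, the enzyme that attaches the lipid to WNT proteins, had group means 4.67, 4.31 and 3.86 log2 CPM, and its difference of -0.81 between TalaR-DF and parental cells passed the adjusted p (0.004) but not the 2-fold limit.

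**Figure D3:**
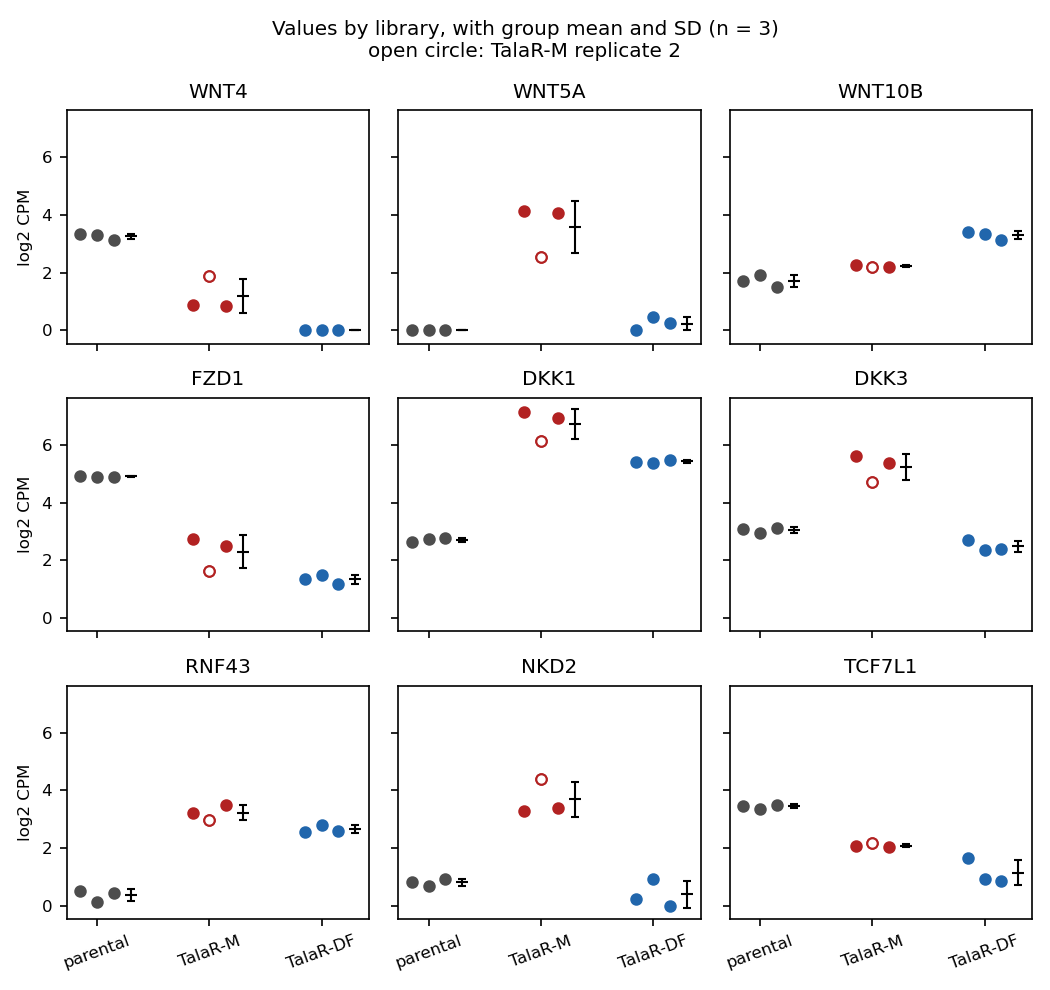
Level of 9 Wnt pathway genes in each library (points; log2 CPM on the y axis, 0 standing for at most 1 CPM) by group, with the group mean and SD (bars, n = 3) beside the points and TalaR-M replicate 2 as an open circle. WNT5A, DKK3 and NKD2 are high in TalaR-M cells only, DKK1 and RNF43 are higher than parental in both resistant groups, and WNT4, FZD1 and TCF7L1 are lower in both.

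All 13 receptors and co-receptors were detected and tested, and 2 of them fell in both resistant states. FZD1 (chr7:91264433-91271326, plus strand, a gene of 1 exon), a Frizzled receptor of the canonical branch, was at 4.94, 4.91 and 4.90 log2 CPM in parental cells, 2.74, 1.64 and 2.49 in TalaR-M cells and 1.35, 1.5 and 1.19 in TalaR-DF cells. It fell by 2.62 log2 units in TalaR-M cells (± 0.27 SE, adjusted p = 0.000228) and by 3.57 in TalaR-DF cells (adjusted p = 4.87e-05), and every resistant library lay below every parental one. The difference between the resistant states, 0.94, did not pass (adjusted p = 0.0582). Without TalaR-M replicate 2 it was 1.27 and passed both thresholds (adjusted p = 1.47e-05). FZD8, a weakly expressed Frizzled gene that overlaps a gene on the opposite strand and the microRNA gene MIR4683, was at 1.21, 1.20 and 1.23 in parental cells. It was listed at 0 in all TalaR-M libraries and was at 0.05, 0.39 and 0 in TalaR-DF cells, at 30 to 33 reads per parental library and at most 17 elsewhere. Its differences of -1.22 (adjusted p = 0.000235; at least 2.32-fold lower) and -1.07 (adjusted p = 0.000631) passed, and the second was -0.99 without TalaR-DF replicate 3. FZD8 would not have entered the test without the parental group, so these calls are given as a description.

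FZD3, a Frizzled receptor known from axon guidance, differed between the resistant states. Its values were 4.21, 4.00 and 4.18 log2 CPM in parental, 3.92, 3.16 and 3.70 in TalaR-M and 4.73, 5.01 and 4.90 in TalaR-DF cells, so that TalaR-DF cells were highest and did not overlap the others. It was 1.28 log2 units lower in TalaR-M than in TalaR-DF cells (adjusted p = 0.00621; 0.0565 when these 2 groups were fitted alone). The difference of 0.74 between TalaR-DF and parental cells passed the adjusted p (0.0412) but not the 2-fold limit. FZD5 was 0.98 lower in TalaR-M than in parental cells, just under 2-fold (adjusted p = 0.0104).

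For 3 receptors the call depended on TalaR-M replicate 2. ROR1, a receptor for WNT5A, was at 5.53, 1.45 and 5.41 log2 CPM in the 3 TalaR-M libraries, replicate 2 being the low one, against 4.17 to 4.36 in parental cells. FZD6 was at 6.64 and 6.54 against 4.47 in replicate 2, and FZD7 at 6.46 and 6.38 against 5.04. With all 9 libraries their differences from parental cells were -0.15, 0.40 and 0.56 and did not pass. Without that replicate they were 1.19, 1.11 and 1.02, and all 3 were called higher. FZD7 was then also 1.60 log2 units higher in TalaR-M than in TalaR-DF cells (adjusted p = 5.23e-07).

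The other receptors were called in no comparison. ROR2, the second receptor for WNT5A, had group means of 5.54, 5.38 and 6.03 log2 CPM. Its difference of 0.49 between TalaR-DF and parental cells had an adjusted p of 0.11. Without TalaR-M replicate 2 this was 6.81e-05, still under 2-fold. FZD4 was the steadiest, at 3.62, 3.78 and 3.74, and its difference between TalaR-M and parental cells had a 95% interval from -0.18 to 0.51. The co-receptors LRP5 and LRP6 had group means of 8.72, 7.99 and 8.43 and of 6.36, 6.22 and 6.67. LRP6 was at 7.02, 4.67 and 6.96 in the TalaR-M libraries, replicate 2 being the low one. Its difference from parental cells was -0.14 with all libraries and 0.64 without that replicate (adjusted p = 6.57e-05), under 2-fold. That of LRP5 went from -0.73 to -0.36. FZD2 had group means of 4.41, 4.89 and 4.11, with TalaR-M replicate 2 at 5.55, and FZD9 did not exceed 1.14 in any library. Per kilobase, LRP5 (6.35) was the highest of the receptors in parental cells, followed by FZD6 (3.58), ROR2 (3.48), FZD7 (3.20) and LRP6 (3.00), and FZD6 and ROR2 differed by less than the SD of FZD6 (0.16).

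LGR4 (chr11:27365961-27472790, minus strand, 18 exons), a receptor for R-spondins that protects Frizzled receptors from removal, was lower in every resistant library than in every parental one. It was at 7.72, 7.70 and 7.72 log2 CPM in parental, 6.20, 3.14 and 6.03 in TalaR-M and 6.39, 6.41 and 6.45 in TalaR-DF cells. All 6 resistant libraries lay more than 1 log2 unit below the parental ones. With all 9 libraries it fell by 2.59 log2 units in TalaR-M cells (± 0.70 SE, adjusted p = 0.0311), and the difference of -1.29 in TalaR-DF cells did not pass (adjusted p = 0.276). Without TalaR-M replicate 2, LGR4 was 1.60 log2 units lower in TalaR-M cells (adjusted p = 1.85e-09) and 1.29 lower in TalaR-DF cells (adjusted p = 4.6e-09), and both were called. Without any 1 parental or TalaR-DF replicate the adjusted p for TalaR-M cells was between 0.0551 and 0.0953. LGR4-AS1 overlaps an exon of LGR4 on the opposite strand.

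Both secreted antagonists that were detected rose in TalaR-M cells. DKK1 (chr10:52314281-52318042, plus strand, 4 exons), which binds LRP5 and LRP6 and blocks the canonical branch, was at 2.63, 2.74 and 2.77 log2 CPM in parental, 7.15, 6.15 and 6.93 in TalaR-M and 5.40, 5.39 and 5.49 in TalaR-DF cells. The 3 groups were in separate ranges, with 89 to 92 reads in parental libraries and 535 to 2230 in TalaR-M libraries. It rose by 4.03 log2 units in TalaR-M cells (± 0.24 SE, adjusted p = 9.86e-06) and by 2.72 in TalaR-DF cells (adjusted p = 0.000129), and TalaR-M cells exceeded TalaR-DF cells by 1.31 (adjusted p = 0.0106; 0.0749 when these 2 groups were fitted alone). This was the largest fitted change from parental to TalaR-M cells among the 37 tested genes, that of WNT5A being a lower bound. Per kilobase its level went from 1.86 log2 CPM (parental) to 5.89 (TalaR-M), which placed it between LRP5 (5.62) and CTNNB1 (6.52) there. PRKG1-AS1 overlaps an exon of DKK1 on the opposite strand.

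DKK3 (chr11:11956207-12009769, minus strand), a divergent relative of DKK1 that does not act through LRP6 in the same way, was at 3.08, 2.96 and 3.14 log2 CPM in parental, 5.61, 4.73 and 5.39 in TalaR-M and 2.69, 2.37 and 2.38 in TalaR-DF cells. All TalaR-M libraries were above, and all TalaR-DF libraries below, the parental range. It rose by 2.19 log2 units in TalaR-M over parental cells (± 0.24 SE, adjusted p = 0.000308) and was 2.76 higher than in TalaR-DF cells (adjusted p = 0.000225). The difference of -0.58 between TalaR-DF and parental cells did not pass with all 9 libraries (adjusted p = 0.144). The 3 groups share 1 estimate of the spread, so TalaR-M replicate 2 also enters this value. Without that library the same difference had an adjusted p of 0.0014 and stayed under 2-fold.

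Of the 5 feedback inhibitors, RNF43 and NKD2 were tested and both rose in TalaR-M cells. RNF43 (chr17:58353676-58417595, minus strand, 10 exons), a membrane ubiquitin ligase that removes Frizzled receptors, was at 0.52, 0.11 and 0.45 log2 CPM in parental, 3.23, 2.96 and 3.48 in TalaR-M and 2.56, 2.80 and 2.58 in TalaR-DF cells. Parental libraries held 14 to 20 reads of it, TalaR-M libraries 58 to 156 and TalaR-DF libraries 75 to 95. It rose by 2.86 log2 units in TalaR-M cells (± 0.19 SE, adjusted p = 1.53e-05) and by 2.29 in TalaR-DF cells (adjusted p = 7.23e-05). The resistant states differed by 0.57, which did not pass (adjusted p = 0.0866; 95% interval 0.15 to 1.00). Exons of RNF43 overlap an unnamed gene on the same strand and TSPOAP1-AS1 on the other, so that its reads may be shared.

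NKD2 (chr5:1008802-1038943, plus strand, 10 exons), which binds Dishevelled and limits the canonical signal, was at 0.83, 0.66 and 0.92 log2 CPM in parental, 3.28, 4.39 and 3.38 in TalaR-M and 0.23, 0.92 and 0 in TalaR-DF cells. TalaR-M libraries held 145 to 158 reads against at most 25 in any other library. It rose by 2.88 log2 units over parental cells (± 0.34 SE, adjusted p = 0.000499) and was 3.30 higher than in TalaR-DF cells (adjusted p = 0.000538). The parental and TalaR-DF ranges overlapped, with a difference of -0.42 (adjusted p = 0.497).

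Promoter windows are shown for 4 genes that rose in TalaR-M cells, because each holds a match to a motif described here. DKK1 and RNF43 were also higher in TalaR-DF cells, and WNT5A and NKD2 were not called there. DKK3, which rose in TalaR-M cells too, had no RefSeq start matched by symbol, so no window of it was searched. Sequences are from RefSeq on GRCh38.p14 and run 5′ to 3′ on the gene's strand over the 250 bases before an annotated start. RefSeq starts were matched by symbol for 39 of the 52 genes, which gave 50 starts, and the start used in PSN1 cells is not known. Capitals mark matches, on either strand, to 3 motifs. These were the TCF/LEF motif (CTTTGAA and its variants, which are CTTTGAT as well as CTTTGTA and also CTTTGTT), the E-box CAGGTG that SNAI factors can bind, and the AP-1 motif TGACTCA. DKK1 is chr10:52314031-52314280 (plus), NKD2 is chr5:1008552-1008801 (plus), WNT5A is chr3:55487307-55487556 (minus) for the farther of its 2 starts, and RNF43 is chr17:58402722-58402971 (minus) for 1 of its 2.
DKK1: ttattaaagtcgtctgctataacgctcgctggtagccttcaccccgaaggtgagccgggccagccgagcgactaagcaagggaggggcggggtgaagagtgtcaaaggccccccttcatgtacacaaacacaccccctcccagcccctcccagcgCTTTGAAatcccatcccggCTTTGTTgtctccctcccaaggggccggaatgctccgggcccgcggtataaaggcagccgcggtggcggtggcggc
NKD2: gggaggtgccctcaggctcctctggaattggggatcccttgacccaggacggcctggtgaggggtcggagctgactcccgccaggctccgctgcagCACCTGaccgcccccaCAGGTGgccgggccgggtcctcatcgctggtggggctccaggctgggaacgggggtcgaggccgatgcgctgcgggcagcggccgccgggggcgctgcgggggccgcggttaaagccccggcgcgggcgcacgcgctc
WNT5A: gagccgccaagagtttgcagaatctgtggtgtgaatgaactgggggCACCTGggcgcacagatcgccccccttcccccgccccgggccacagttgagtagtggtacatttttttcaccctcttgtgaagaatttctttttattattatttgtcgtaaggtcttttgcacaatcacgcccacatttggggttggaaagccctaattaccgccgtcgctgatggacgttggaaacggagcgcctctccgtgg
RNF43: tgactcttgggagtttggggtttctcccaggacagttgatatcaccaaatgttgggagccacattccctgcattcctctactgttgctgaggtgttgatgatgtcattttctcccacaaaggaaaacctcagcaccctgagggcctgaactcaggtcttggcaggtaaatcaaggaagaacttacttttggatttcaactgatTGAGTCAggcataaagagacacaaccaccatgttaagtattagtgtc
The DKK1 window holds the TCF/LEF motif at 95 and 76 bases before the start. NKD2 holds the E-box at 154 and 138 bases, WNT5A holds it at 204 bases, and RNF43 holds the AP-1 motif at 47 bases. The other starts of WNT5A and RNF43 hold none of the 3 motifs. Over all 34788 distinct windows of this length, 12% hold a TCF/LEF match, 17.5% an E-box match and 4.21% an AP-1 match. Of the 50 windows of Wnt genes, 3 hold a TCF/LEF match (DKK1, TCF7 and TCF7L2), 8 an E-box match and 1 an AP-1 match. A match describes letters only, and binding was not measured in these files.

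None of the 7 intracellular core genes was called in any comparison, with or without TalaR-M replicate 2. CTNNB1, which encodes β-catenin, was at 8.56, 8.59 and 8.62 log2 CPM in parental, 8.83, 7.67 and 8.68 in TalaR-M and 8.90, 8.82 and 8.81 in TalaR-DF cells. Per kilobase it was the highest of all 52 genes in each group (6.72, 6.52 and 6.97 log2 CPM). Its 95% intervals ran from -0.83 to 0.44 for TalaR-M and from -0.38 to 0.89 for TalaR-DF against parental cells, so that a 2-fold change lies outside both. AXIN1, the scaffold of the destruction complex, was the only core gene to pass the adjusted p with all 9 libraries, at 5.97, 5.71 and 6.03 in TalaR-M cells against 6.52 to 6.67 in parental cells (-0.71, adjusted p = 0.00515) and 6.61 to 6.72 in TalaR-DF cells (-0.77, adjusted p = 0.00679). The kinase GSK3B had group means of 6.11, 5.56 and 6.09, and TalaR-M replicate 2 was at 4.72 against 5.97 and 5.98 in its group mates. For APC, the other scaffold, the TalaR-M values 6.08 and 5.91 were near the parental mean of 6.11 and replicate 2 was at 3.60. Its interval of -2.23 to 0.41 between TalaR-M and parental cells is too wide to leave out a 2-fold fall. DVL1, DVL2 and DVL3, the Dishevelled genes, differed by -0.42, -0.32 and -0.38 in the same comparison, with adjusted p of 0.0522, 0.235 and 0.266. Without TalaR-M replicate 2 the differences of GSK3B, DVL2 and DVL3 in that comparison were -0.13, -0.11 and -0.08. Several smaller differences passed the adjusted p but not the 2-fold limit without TalaR-M replicate 2. These were DVL1 in TalaR-M cells (-0.47 against parental, adjusted p = 0.000719, and -0.53 against TalaR-DF cells, adjusted p = 0.000455), CTNNB1 against parental cells (0.17 in TalaR-M, adjusted p = 0.0479, and 0.26 in TalaR-DF cells, adjusted p = 0.00259), and APC (-0.29, adjusted p = 0.0231) and DVL2 (-0.23, adjusted p = 0.0256) between TalaR-M and TalaR-DF cells.

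TCF7 and TCF7L1 fell in both resistant states, and TCF7L2 fell in TalaR-M cells with all libraries. TCF7, which encodes TCF1, was at 3.36, 3.15 and 3.01 log2 CPM in parental, 2.40, 1.64 and 1.65 in TalaR-M and 1.92, 1.39 and 1.58 in TalaR-DF cells. It fell by 1.28 log2 units in TalaR-M (± 0.25 SE, adjusted p = 0.00708) and by 1.54 in TalaR-DF cells (adjusted p = 0.00333), and the resistant states overlapped each other. TCF7L1, which encodes the largely repressive factor TCF3, was at 3.47, 3.36 and 3.51 in parental, 2.07, 2.15 and 2.02 in TalaR-M and 1.66, 0.92 and 0.86 in TalaR-DF cells. It fell by 1.36 in TalaR-M (adjusted p = 0.00273) and by 2.30 in TalaR-DF cells (adjusted p = 0.000177). The 3 groups were in separate ranges, and the gap of 0.94 between the resistant states passed the adjusted p (0.0281) but not the 2-fold limit, which it passed after rescaling by the median ratio (1.09).

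TCF7L2, which encodes TCF4 and was the highest of the TCF genes per kilobase in parental cells (3.46 log2 CPM), was at 5.57, 5.45 and 5.44 log2 CPM in parental, 4.78, 3.74 and 4.74 in TalaR-M and 5.03, 4.99 and 5.17 in TalaR-DF cells. Both resistant groups lay below the parental range. The difference of -1.07 in TalaR-M cells passed (adjusted p = 0.0222). Without TalaR-M replicate 2 it was -0.73, without any 1 parental replicate its adjusted p was between 0.071 and 0.084, and after rescaling it was -0.96. The difference of -0.43 in TalaR-DF cells did not pass with all 9 libraries (adjusted p = 0.355). Without TalaR-M replicate 2 it passed the adjusted p (0.000334) but not the 2-fold limit. With LEF1 at 0 throughout, no TCF/LEF gene was called higher in either resistant state.

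Between the resistant states, the direct test separated TalaR-M from TalaR-DF cells at 7 genes. WNT5A, NKD2, DKK3, DKK1 and WNT4 were higher in TalaR-M cells, by 3.34, 3.30, 2.76, 1.31 and 1.20 log2 units, and FZD3 and WNT10B were lower, with differences of -1.28 and -1.08. For WNT5A, NKD2 and DKK3, no difference between TalaR-DF and parental cells passed the test with all 9 libraries. Without TalaR-M replicate 2, DKK3 was lower in TalaR-DF than in parental cells (-0.58, adjusted p = 0.0014), by less than 2-fold. DKK1 lay between the parental and TalaR-M levels in TalaR-DF cells. For RNF43, FZD1, FZD8, TCF7 and TCF7L1, called against parental cells in both states, no difference between the states was called with all 9 libraries.

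The deviation of TalaR-M replicate 2 was large for many Wnt genes, as for other genes. In 15 of the 37 tested genes (40.5%) it lay over 2-fold above or below the mean of its 2 group mates, against 43.5% of all genes tested. Across the 37 genes this deviation was related to transcript length (Pearson r = -0.43, Spearman rho = -0.49), and across 11710 genes it was as well (-0.62 and -0.62). These correlations are across genes of 1 library and its mates, and genes are not independent replicates. The 28 genes with transcripts of 3000 bases or more had a median deviation of -0.79 log2 units, and the 9 shorter ones of -0.04. DKK1 (1805 bases) and DKK3 (2525 bases) deviated by -0.89 and -0.77, the lowest of the shorter ones, NKD2 (2182 bases) deviated upward by 1.06, and LGR4 and ROR1, at 5250 and 5858 bases, deviated by -2.97 and -4.02. The cause of the deviation was not tested.

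**Figure D4:**
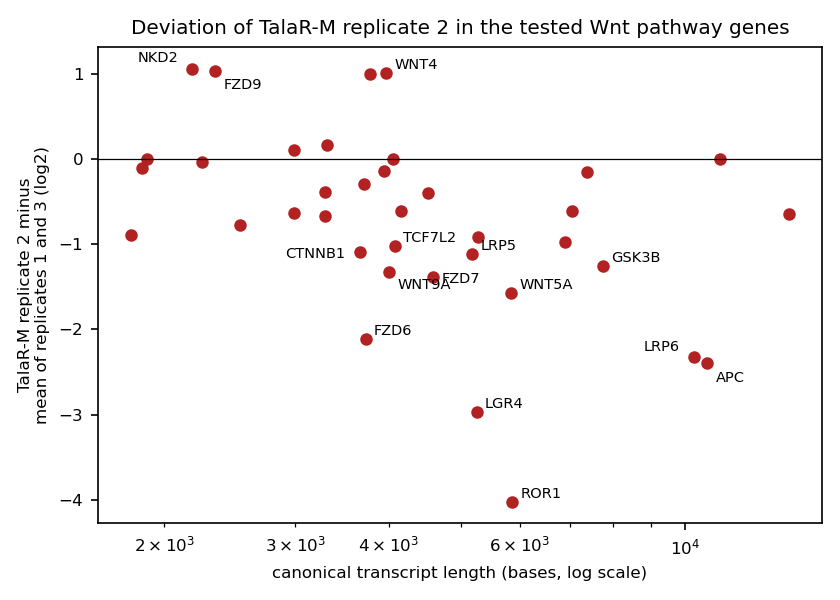
Deviation of TalaR-M replicate 2 from the mean of replicates 1 and 3 (y axis, log2 units) against the length of the canonical transcript (x axis, bases, log scale) for the 37 tested Wnt pathway genes, each a point, with names where the deviation exceeds 2-fold. Most points lie below 0, and ROR1 (-4.02) and LGR4 (-2.97) lie lowest.

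Other genes of the pathway were examined as a second list of 76, of which 63 were tested. Between TalaR-M and parental cells 13 were called (20.6%), 4 higher and 9 lower, between TalaR-DF and parental cells 6 (9.52%), 2 higher and 4 lower, and between TalaR-M and TalaR-DF cells 4 (6.35%), all higher in TalaR-M. The shares over all genes were 13.3%, 9.73% and 6.93%. Without TalaR-M replicate 2 the counts were 12 (19%), 7 (11.1%) and 3 (4.76%), against 13.9%, 11.4% and 8.36%. The median log2 fold changes were -0.29, 0.05 and -0.26. Up to 5 called genes with the largest change are named for each comparison. Among the secreted antagonists, FRZB, a decoy receptor for WNT ligands, was at 3.57, 3.29 and 3.37 log2 CPM in parental cells and listed at 0 in all 6 resistant libraries, at least 10.6-fold lower. FRZB entered the test through the parental group only, as WNT11 did, so its calls, which are in the counts above, are given as a description. SFRP5, of the same family, went the other way, with 2.96 to 3.37 in parental libraries and 4.91 to 5.54 in those of TalaR-M (2.00, adjusted p = 0.000288). It was 1.09 higher in TalaR-M than in TalaR-DF cells, and 0.92 without TalaR-M replicate 2.

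Among the nuclear cofactors, TLE4, a Groucho-type co-repressor of TCF factors, was at 0 in all parental libraries, at 4.60, 3.23 and 4.33 log2 CPM in TalaR-M cells and at 0.67, 0.68 and 1.29 in TalaR-DF cells. TalaR-M cells had at least 16.6-fold more of it than parental cells (adjusted p = 7.57e-05) and 3.17 log2 units higher than in TalaR-DF cells (adjusted p = 0.000778). TLE2, a co-repressor of the same family, was 1.31 higher in TalaR-M than in TalaR-DF cells (adjusted p = 0.00742). CTNNBIP1, which keeps β-catenin from TCF factors, was 1.07 higher in the same comparison (adjusted p = 0.0064), and 0.95 without TalaR-M replicate 2. Against parental cells it differed by 0.09 in TalaR-M cells (adjusted p = 0.73). In TalaR-DF cells it was lower than in parental cells by less than 2-fold (-0.98, adjusted p = 0.00569).

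In the planar polarity and calcium branches, PRICKLE1 and PRICKLE2, a pair of cytoplasmic polarity proteins, moved in opposite directions. PRICKLE1 was at 0.20 to 0.93 log2 CPM in parental, 3.50 to 3.88 in TalaR-M and 2.73 to 2.83 in TalaR-DF cells, and rose by 3.16 (adjusted p = 1.53e-05) and 2.24 (adjusted p = 0.000147). PRICKLE2 was at 4.46 to 4.71, 2.80 to 3.01 and 1.78 to 2.24, and fell by 1.67 and by 2.51. The groups did not overlap for either gene. PRICKLE1 was 0.92 higher in TalaR-M than in TalaR-DF cells, which was not called. Without TalaR-M replicate 2 this difference was 1.01 and was called (adjusted p = 0.00107). PLCB1, a phospholipase of the calcium branch, fell by 2.28 in TalaR-M and by 1.73 in TalaR-DF cells. CELSR1, a polarity cadherin, fell by 1.54 in TalaR-M (adjusted p = 0.0343) and by 1.55 in TalaR-DF cells (adjusted p = 0.0387). Without TalaR-M replicate 2 the first difference was -0.95 and under 2-fold.

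Genes often cited as β-catenin/TCF targets formed a further list of 49, of which 33 were tested, 2 of them through 1 group only. Many of them also respond to other pathways. Of these, 10 (30.3%) were called between TalaR-M and parental cells, 6 higher and 4 lower, 10 (30.3%) between TalaR-DF and parental cells, 3 higher and 7 lower, and 8 (24.2%) between TalaR-M and TalaR-DF cells, 7 higher and 1 lower. The median log2 fold changes were 0.07, -0.19 and 0.25. The shares over all genes were 13.3%, 9.73% and 6.93%. Without TalaR-M replicate 2 the counts were 7 (21.2%), 10 (30.3%) and 11 (33.3%), against 13.9%, 11.4% and 8.36% of all genes. Calls went in both directions. The secreted factors BMP4, a bone morphogenetic protein, and EDN1, the precursor of endothelin, rose in both resistant states. BMP4 was at 2.65, 2.43 and 2.41 log2 CPM in parental, 7.37, 6.46 and 7.21 in TalaR-M and 3.98, 4.01 and 4.16 in TalaR-DF cells, a rise of 4.52 (adjusted p = 4.73e-06) and 1.55 (adjusted p = 0.00256). EDN1 was at 0 in parental cells, at 4.27, 3.03 and 4.20 in TalaR-M and at 2.23, 2.49 and 2.06 in TalaR-DF cells, at least 14.2-fold and at least 4.79-fold higher.

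BAMBI, a decoy receptor that dampens TGF-β signals, was 2.11 log2 units above its parental level in TalaR-M cells and 2.62 higher than in TalaR-DF cells. CLDN1, a tight junction protein, rose by 2.39 in TalaR-M cells. TNFRSF19, a receptor of the TNF family, was at 3.10 to 3.43 log2 CPM in parental, 2.28 to 4.21 in TalaR-M and 0 to 0.54 in TalaR-DF cells, and fell by 3.08 in TalaR-DF cells (adjusted p = 0.00249). SOX4, a transcription factor of progenitor cells, fell by 2.93 in TalaR-DF cells (adjusted p = 5.75e-06) and was 1.86 higher in TalaR-M than in TalaR-DF cells. VEGFA, the vascular growth factor, fell by 1.96 in TalaR-M cells, and TBX3, a transcriptional repressor, fell by 1.59 in TalaR-DF cells. Neither fall was seen in that state alone, by reads not adjusted for depth. VEGFA had 765 to 876 reads in TalaR-DF against 1983 to 2109 in parental libraries. TBX3 had 261, 58 and 205 reads in TalaR-M libraries against 595 to 681 in parental ones. MYC, a driver of growth, was at 9.84 to 9.99 in parental, 8.77 to 9.62 in TalaR-M and 10.92 to 11.04 in TalaR-DF cells, and was 1.70 lower in TalaR-M than in TalaR-DF cells (adjusted p = 0.00212). For MYC as for FZD3 and WNT10B, TalaR-DF cells had the highest level.

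**Figure D5:**
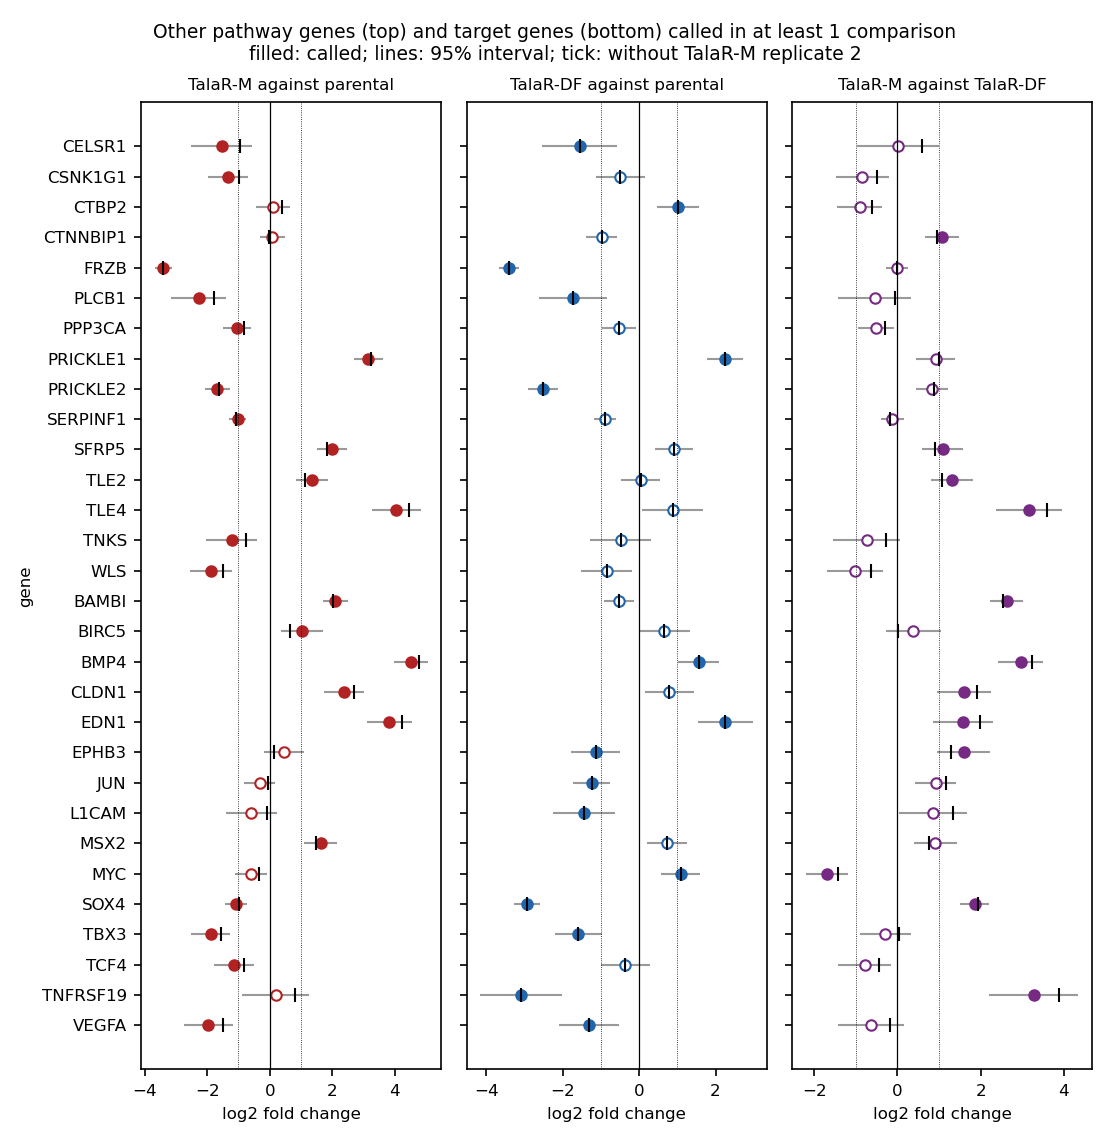
Log2 fold changes (x axis) with 95% intervals (grey lines) of the 15 other pathway genes (upper block, CELSR1 to WLS) and the 15 target genes (lower block, BAMBI to VEGFA) called in at least 1 of the 3 comparisons. Filled points passed both thresholds, open points did not, and black ticks give the value without TalaR-M replicate 2. FRZB is far below 0 in both comparisons with parental cells, and TLE4, BMP4 and EDN1 are far above 0 in TalaR-M cells.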

How the data were processed

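The study measured poly(A) RNA from stranded libraries, and 9 PSN1 libraries of its 48 samples were used. Samples of other lines and of short treatments were not analysed here. The authors deposited log2 values, which proved to be log2 CPM each with 1 prior count, adjusted for library size, and with a lower limit of 0. This was read from the values, since under 50 CPM all of them gave whole reads within 0.05. In TalaR-M replicate 2, 1 CPM corresponded to 6.97 reads, too few for a plain share of its 8387755 reads on genes above 1 CPM. The library sizes had thus been scaled, by a method not given in the sources used here, and the median-ratio rescaling came on top of that. Every value column used belongs to 1 of the 9 libraries, and those headed maintain and withdraw were read as TalaR-M and TalaR-DF, respectively. The submitters' processing notes name the build hg38, and the aligner, the counting method and the annotation are not given in the sources used here. A floor at 1 CPM hides lower expression, and a change against a group listed at 0 is a lower bound. Such a group has no spread, so the SE and adjusted p of genes such as WNT4, WNT5A, FZD8, FRZB, TLE4 and EDN1 may be too small.

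The 12471 genes that exceeded 1 CPM in 3 or more libraries entered the test with limma 3.58.1 in R 4.3.3, in 1 model of 3 groups with a mean-variance trend and no further pseudocount. Calls needed a log2 fold change of at least 1 and a Benjamini-Hochberg adjusted p under 0.05. With 3 against 3 libraries an exact permutation test of a gene cannot pass, so none was used. On simulated counts with 200 changed genes the test was tried before use. The simulated libraries all had the same spread and none stood apart as TalaR-M replicate 2 does, so that trial does not cover such a library. The members and lists were chosen with earlier results of these data known. Every member could be named, and of the other lists up to 5 called genes with the largest change per comparison. Replicate numbers did not pair the libraries. Alternatives were pseudocounts of 1 and 8 CPM, other filters, median-ratio rescaling, no trend, array weights, a replicate block, a fit of 2 groups alone, no fold threshold, and leaving out each library. Positions and lengths came from GENCODE 44 (GRCh38), matched by symbol for all 52 members, and promoters from RefSeq. Figures were drawn with matplotlib 3.10.9.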

Additional observations from a re-analysis of the deposited data

How the results depend on the processing

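Counts of called genes with parental cells as the reference for TalaR-M, then for TalaR-DF, and lastly with TalaR-DF as the reference for TalaR-M, were 12, 8 and 7 for the Wnt genes, 13, 6 and 4 for the other pathway genes and 10, 10 and 8 for the target genes. With 8 CPM added, the Wnt genes gave 6, 3 and 4, the other pathway genes gave 3 and 1 in the last 2 comparisons, and the target genes gave 6 in the first. For TalaR-M against TalaR-DF, fitting these 2 groups alone gave 4 Wnt genes and 2 other pathway genes, and array weights gave 2 other pathway genes. With no fold threshold the other pathway genes gave 11 for TalaR-DF against parental and 8 for TalaR-M against TalaR-DF. Leaving out 1 replicate at a time gave 10 to 15, 7 to 9 and 6 to 9 Wnt genes, 11 to 15, 3 to 7 and 2 to 10 other pathway genes, and 7 to 12, 7 to 10 and 7 to 11 target genes. The count of 3 came without parental replicate 3 or TalaR-DF replicate 2, that of 10 without TalaR-M replicate 1, and that of 2 without TalaR-DF replicate 2. Apart from the larger pseudocount, which by its construction shrinks changes of low genes, and the smaller number of samples in the fits that leave some out, the cause was not tested. All other alternatives kept the counts within 1.5 times, and no called Wnt gene changed direction under any of the alternatives run. DKK1, WNT5A, FZD1, DKK3 and NKD2 kept their calls between TalaR-M and parental cells under all 18 alternatives. With the replicate block the Wnt genes gave 12, 8 and 7, the other pathway genes 11, 5 and 4 and the target genes 9, 9 and 8. Samples with the same number did not deviate together, since 2 of 9 pairs had a correlation over 0.1 (range -0.417 to 0.217) and not every sample correlated best with its own number. Depth limits what is seen under 1 CPM, which is 6.97 to 14.54 reads.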

Other observations

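The other members of the ligand, receptor and antagonist families were looked up after the values of the 52 genes were seen. Of 15 such genes, 13 were listed at 0 in all 9 libraries. These were the ligands WNT1, WNT2, WNT8A, WNT8B and WNT9B, the receptor FZD10, the R-spondin receptor LGR5, all 4 R-spondin genes (RSPO1 to RSPO4), and the antagonists DKK2 and DKK4. FRZB and SFRP5 were the exceptions. LGR4, a receptor for R-spondins, was thus detected in cultures in which no R-spondin gene exceeded 1 CPM.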
